A study of Mus musculus with 2 samples.

Results

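Cytotoxic CD4 T cells of the mouse colon that carried transcript of Cd8a, the alpha chain of the CD8 coreceptor, were compared with cytotoxic CD4 T cells of the same mice in which none was counted. The cells were chosen by their deposited subset label for cytotoxic CD4 cells, by their WT label and by their count of Cd8a unique molecular identifiers (UMIs, each standing for 1 captured transcript). Of 3037 cytotoxic cells of WT-labelled mice, 402 had 1 or more Cd8a UMIs and 2635 had 0. These mice gave 9152 cells in all, and the whole data set holds 18860 cells. Ccl5, a marker of cytotoxic T cells, was at 14486 ± 2029 CPM in the negative cytotoxic cells in the matched sums used below (SD, n = 6 mice). Cd8a itself was left out of every sum tested, and its level and shares are described without a test.

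The mice were Rag-/- hosts, which have no T or B cells of their own, in the adoptive transfer model of colitis, in which transferred CD4 T cells inflame the colon. The WT group received CD4+ T cells sorted as CD45RBhigh and CD25-, and the KO group received BCL-6 deficient CD4+ T cells. Each group had 6 mice, and the labels state no age and no time after transfer. They also do not state the promoter or Cre behind the BCL-6 deficiency. Colonic T cells labelled TCRb+CD4+ were sorted from each mouse, marked with a hashtag antibody against beta2 microglobulin and sequenced together in 1 droplet library with 5′ chemistry, so no comparison rests on a library difference. The mouse was the unit of replication throughout.

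The CD8 coreceptor exists as an alpha-beta heterodimer, the form on conventional CD8 T cells, and as an alpha-alpha homodimer. CD4 T cells that settle in the intestinal epithelium can gain CD8 alpha without the beta chain while they keep CD4, together with granzymes and NK-type receptors. This programme is known to depend on the transcription factors RUNX3 and T-bet and on loss of ThPOK, the CD4 lineage factor encoded by Zbtb7b.

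Cd8a (chr6:71373427-71379173, plus strand, GRCm38) lies 35932 bases from Cd8b1, which encodes the beta chain (chr6:71322788-71337494, plus strand). In WT mice 1 to 6, the positive cells numbered 107, 77, 71, 40, 90 and 17. They made up 18.3, 14.9, 14.5, 10.3, 13.9 and 4.19% of each mouse's cytotoxic cells. WT mouse 6 stood below the other five. Among the positive cells 171 carried 1 Cd8a UMI, 231 carried 2 or more and 48 carried 5 or more, with a highest count of 13. A count of 0 does not show that a cell lacked the transcript. With the cytotoxic cells ordered by total UMIs and split into 4 bins of 758 to 760 cells, the positive share was 6.18, 11.4, 15.4 and 19.9%.

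Transcript of the beta chain was found in 1 positive cell, and the share of cells with Cd4 showed no detectable difference from negative cells of the same depth. Cd8b1 was found in 1 of 402 positive cells (0.249%, exact 95% interval 0.00630 to 1.38%) and in 24 of 2635 negative cells (0.911%). Its share in Th17 cells of the same mice was 1.15% at a median of 3468 UMIs, against 0.823% in all cytotoxic cells at 2480 UMIs. Cd4 was found in 229 of 402 positive cells (57.0%, 52.0 to 61.9%) and in 245 of 402 negative cells matched to them for depth (60.9%, 56.0 to 65.7%). The share of cells with a Cd4 UMI averaged 57.5% ± 6.90 in positive and 60.7% ± 7.96 in matched negative cells (SD, n = 6 mice, exact sign-flip test p = 0.59375). Summed Cd4 expression differed by -0.03 ± 0.12 on the log2 scale (SE, adjusted p = 0.991). Intervals of shares cover counting error only.

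Outside the cytotoxic subset, Cd8a UMIs were found in 82 cells of WT mice. The cycling subset held 46 of them among 569 cells (8.08%, exact 95% interval 5.98 to 10.6%). Shares were 0.826% in recirculating cells (19 of 2299) and 0.241% in Th17 cells (4 of 1658), at medians of 3264 and 3468 UMIs against 2480 in cytotoxic cells. The highest count in 1 cell was 9 Cd8a UMIs in the recirculating and 1 in the Th17 subset. The part of free RNA in these shares was not tested. In KO mice 35 of 818 cytotoxic cells were positive. With every cell thinned to 1500 UMIs, which left out 248 shallower cytotoxic cells of WT mice, the share was 10.5% ± 3.66 in WT mice and 3.34% ± 1.31 in KO mice (SD, n = 6 each). The difference was -7.17 percentage points, given without a test because Cd8a chose the cells. WT mouse 6, at 3.99%, lay inside the KO range of 2.33 to 5.03%, and the other five WT mice lay above it.

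**Figure D1:**
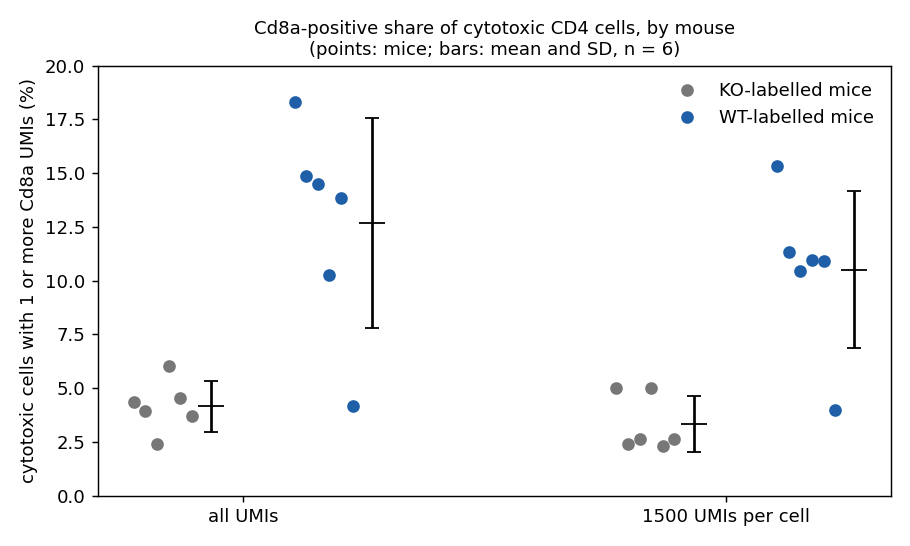
Percent of cytotoxic CD4 cells with 1 or more Cd8a UMIs (vertical axis) in each of 6 KO-labelled and 6 WT-labelled mice, from all UMIs and after thinning each cell to 1500 UMIs. Points are mice and bars are the mean and SD. WT mouse 6, at 4.19% from all UMIs, is the WT point among the KO points.

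The share of positive cells was also counted by T cell clone, a group of cells with the same receptor. A clonotype was assigned to 361 of the 402 positive cells, which fell into 140 clones, and 104 of these clones held negative cells as well. Single-cell clones held 32 positive cells among 574 clones. In 14 clones of 20 or more cytotoxic cells, the share with Cd8a ran from 0 to 47.6%. The bases below are the beta-chain junctions of the clones at both ends of that range, as the deposited table gives them, in lower case with no base marked. They are shown to identify the clones whose Cd8a shares lay furthest apart. With 20 to 89 cells a clone, the intervals are wide.
WT mouse 3, 10 of 21 cells positive: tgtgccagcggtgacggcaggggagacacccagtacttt
WT mouse 5, 37 of 84 cells positive: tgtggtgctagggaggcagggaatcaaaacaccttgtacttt
WT mouse 5, 0 of 25 cells positive: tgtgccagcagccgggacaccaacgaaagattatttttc
WT mouse 5, 0 of 25 cells positive: tgtgccagcgggcagtatgaacagtacttc
WT mouse 4, 0 of 21 cells positive: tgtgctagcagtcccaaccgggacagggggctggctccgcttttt

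These junctions are 39, 42, 39, 30 and 45 bases long. The clone of 84 cells was 44.0% positive (exact 95% interval 33.2 to 55.3%) and held 41.1% of the positive cells of WT mouse 5. Another large clone of that mouse held 9 positive cells of 86 (10.5%, 4.90 to 18.9%) at a higher median depth, 3165 against 2720 UMIs. Each clone of 25 cells with 0 positive cells had an upper bound of 13.7%, or 12% by a floor of 3 cells. The 84-cell clone was picked for its high share and its cells come from 1 mouse, so these shares are a description only. The part of depth in them was not tested. In WT mouse 1, a pair of clones with the same beta junction (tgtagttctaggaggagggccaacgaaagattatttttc) had shares of 16.3% (14 of 86) and 12.3% (8 of 65).

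**Figure D2:**
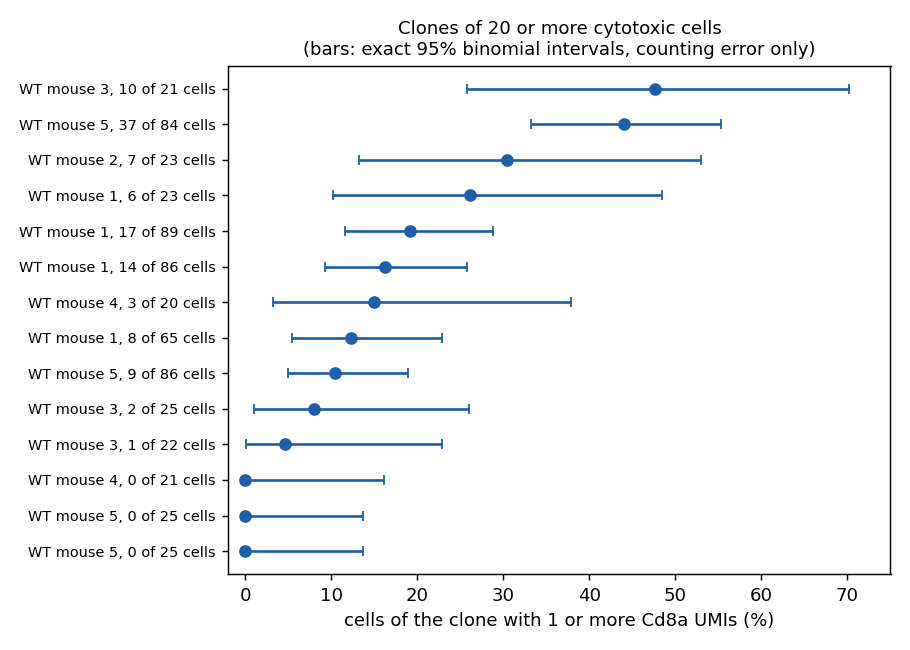
Percent of cells with 1 or more Cd8a UMIs (horizontal axis) in each of 14 clones of 20 or more cytotoxic cells, 1 row per clone with its mouse. Bars are exact 95% binomial intervals. The top clones are at 47.6 and 44.0%, and the bottom 3 are at 0.

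Positive cells were more deeply sequenced than negative cells before any matching. The median was 2826 ± 172 against 2406 ± 172 UMIs outside Cd8a (SD, n = 6), higher in 6 of 6 mice (exact sign-flip test p = 0.03125, the smallest that 6 pairs can give, adjusted over 7 cell measures to 0.109). A deeper cell is more likely to show a Cd8a UMI, so the choice of cells favoured this direction in advance. Each positive cell was therefore paired with 1 negative cell of the same mouse and nearest depth, after which the medians differed by 0.25 UMIs. UMIs were summed per mouse and side, giving 46469 to 305160 UMIs per sum. WT mouse 6, with 17 cells a side, gave the smallest sums. Genes per cell and the mitochondrial percentage showed no detectable difference in the matched cells (exact sign-flip test, adjusted p = 0.969 for both). The doublet score was lower in the positive cells of 6 of 6 mice, at 0.0499 ± 0.0028 against 0.0617 ± 0.0080 (SD, exact sign-flip test p = 0.03125, adjusted 0.219). Levels below are normalised CPM (UMI counts of these sums scaled to a common library size), and changes are log2 fold changes of positive over negative cells, with their SE and p-values adjusted over all genes.

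Of 3118 genes tested over 6 mice, 28 passed an adjusted p of 0.05 (0.898%), 12 higher (0.385%) and 16 lower (0.513%) in positive cells. Cytotoxic granule genes, surface receptors of intraepithelial and NK-type lymphocytes and the chemokine gene Ccl5 were among the rises. The chemokine receptor Ccr2, the transcription factors Maf and Ahr, the costimulatory receptor Tnfrsf4 and 4 chaperone genes were among the falls. In 18 of the 28 the change went the same way in every mouse, against 160 of all genes tested (5.13%). In 7 of the 28 the positive and negative values did not overlap at all, against 0.609% of all genes tested. Of the 28 calls, 13 were kept without each mouse in turn, and 15 were lost without at least 1 mouse. The direction of all 28 was the same in every one of those fits. They reuse most of the mice that chose the 28 genes, so a shared direction was likely in advance.

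**Figure D3:**
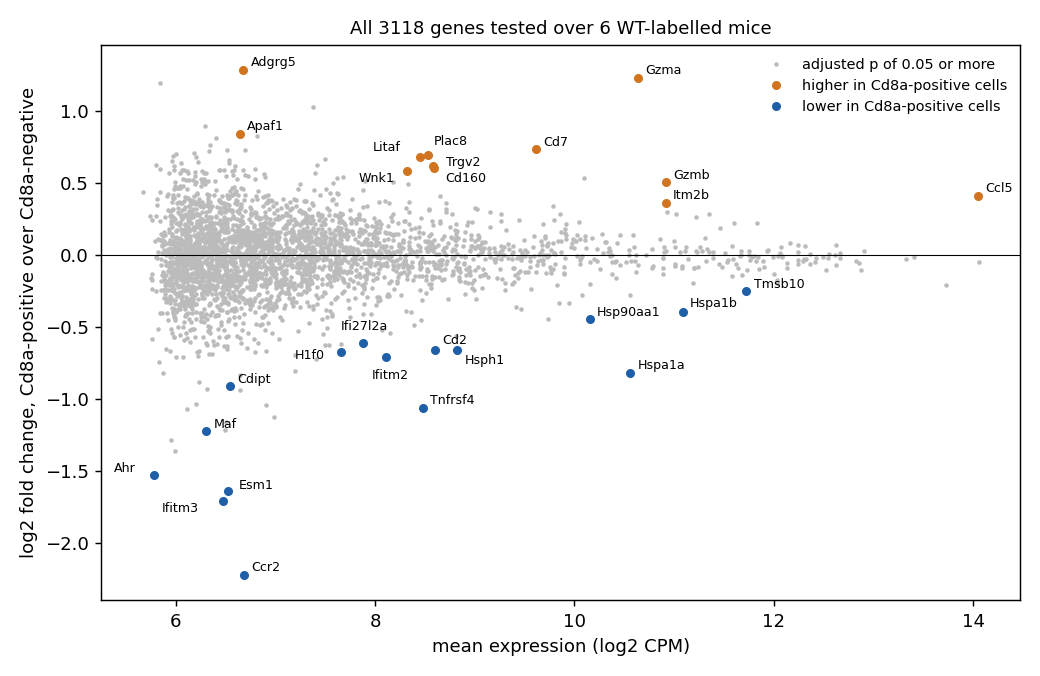
Mean expression (horizontal axis, log2 CPM) and log2 fold change of Cd8a-positive over Cd8a-negative cells (vertical axis) of the 3118 genes tested. Coloured points are the 12 genes that rose and the 16 that fell at an adjusted p under 0.05, from Adgrg5 at 1.28 to Ccr2 at -2.22.

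Gzma, the tryptase of cytotoxic granules, rose the most among granule genes. Its level in WT mice 1 to 6 was 363, 3693, 1478, 3935, 1647 and 4036 CPM in positive cells. Matched negative cells had 441, 1272, 1461, 921, 538 and 401 CPM. WT mice 2, 4, 5 and 6 were higher on the positive side, WT mouse 3 was level and WT mouse 1 was lower. The log2 change was 1.23 ± 0.20 (adjusted p = 6.9e-04). The log2 ratios of the single mice ran from -0.28 in WT mouse 1 to 3.33 in WT mouse 6. The SE of 0.20 comes from the fit and does not show that spread between mice. Among cells with a Cd4 UMI, in the 5 mice with enough cells, the log2 change of Gzma was 0.10 (adjusted p = 0.989).

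Gzmb, the granzyme that activates caspases in target cells, was at 2272 ± 1074 CPM in positive and 1502 ± 377 CPM in negative cells (SD, n = 6), higher in 5 of 6 mice. Its log2 change was 0.50 ± 0.10 (adjusted p = 0.0036), and it was 0.59 (adjusted p = 0.0045) among cells with a Cd4 UMI. Of 13 genes tested from an 18-gene list of granule genes, these 2 rose and none fell, and the median change was 0.22, against 0.00026 over all genes. Nkg7, a granule membrane protein needed for degranulation, was at 3305 ± 202 against 2797 ± 403 CPM, higher in 6 of 6 mice with an adjusted p of 0.097. Gzmk, a granzyme of less differentiated effector cells, was lower in 5 of 6 mice (269 ± 88.4 against 381 ± 80.8 CPM, adjusted p = 0.206). Perforin (Prf1) had too few UMIs to be tested, 55 in positive and 42 in negative cells.

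Of 22 listed receptors and adaptors of NK-type and intraepithelial lymphocytes, 8 could be tested and 2 of them rose, Cd7 and Cd160. All 8 were above 0, with a median of 0.43, where 1561 of all 3118 genes were above 0. NK-type receptor genes with too few UMIs to be tested went both ways. Klrg1 had 12 UMIs in positive and 33 in negative cells, Klrk1 28 and 37, and Cd244 34 and 9. Cd7, an immunoglobulin-family receptor typical of intraepithelial lymphocytes, had 1090, 945, 883, 1268, 779 and 763 CPM in positive cells of WT mice 1 to 6. The negative cells had 676, 551, 836, 542, 404 and 330 CPM, lower in every mouse. The change was 0.73 ± 0.12 (adjusted p = 3.9e-04). Cd160, which binds the receptor HVEM, was at 458 ± 81.4 against 288 ± 52.7 CPM, higher in 5 of 6 mice (0.60 ± 0.13, adjusted p = 0.0168). The Cd160 call was lost without WT mouse 1, 4 or 5 (adjusted p of 0.0954, 0.0509 and 0.0891).

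Adgrg5, an adhesion G protein-coupled receptor, had the largest log2 change among the 12 rises. The positive cells of WT mice 1 to 6 had 143, 139, 132, 106, 126 and 73.8 CPM. The negative cells had 78.5, 39.0, 34.4, 27.1, 63.1 and 70.7 CPM. Every mouse was higher on the positive side, WT mouse 6 only by a small margin, and the change was 1.28 ± 0.23 (adjusted p = 0.0016).

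Ccl5, the chemokine that recruits T cells and monocytes and the most abundant of the called genes, separated the groups fully. Positive cells had 18166, 21483, 21758, 18047, 16877 and 19464 CPM in WT mice 1 to 6, and negative cells 13812, 16735, 15194, 13125, 16506 and 11546 CPM. Every positive sum was above every negative sum, with a change of 0.41 ± 0.06 (adjusted p = 5.8e-05). Ccl4, a related chemokine, was at 1235 ± 366 against 978 ± 496 CPM and did not pass (adjusted p = 0.0826).

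**Figure D4:**
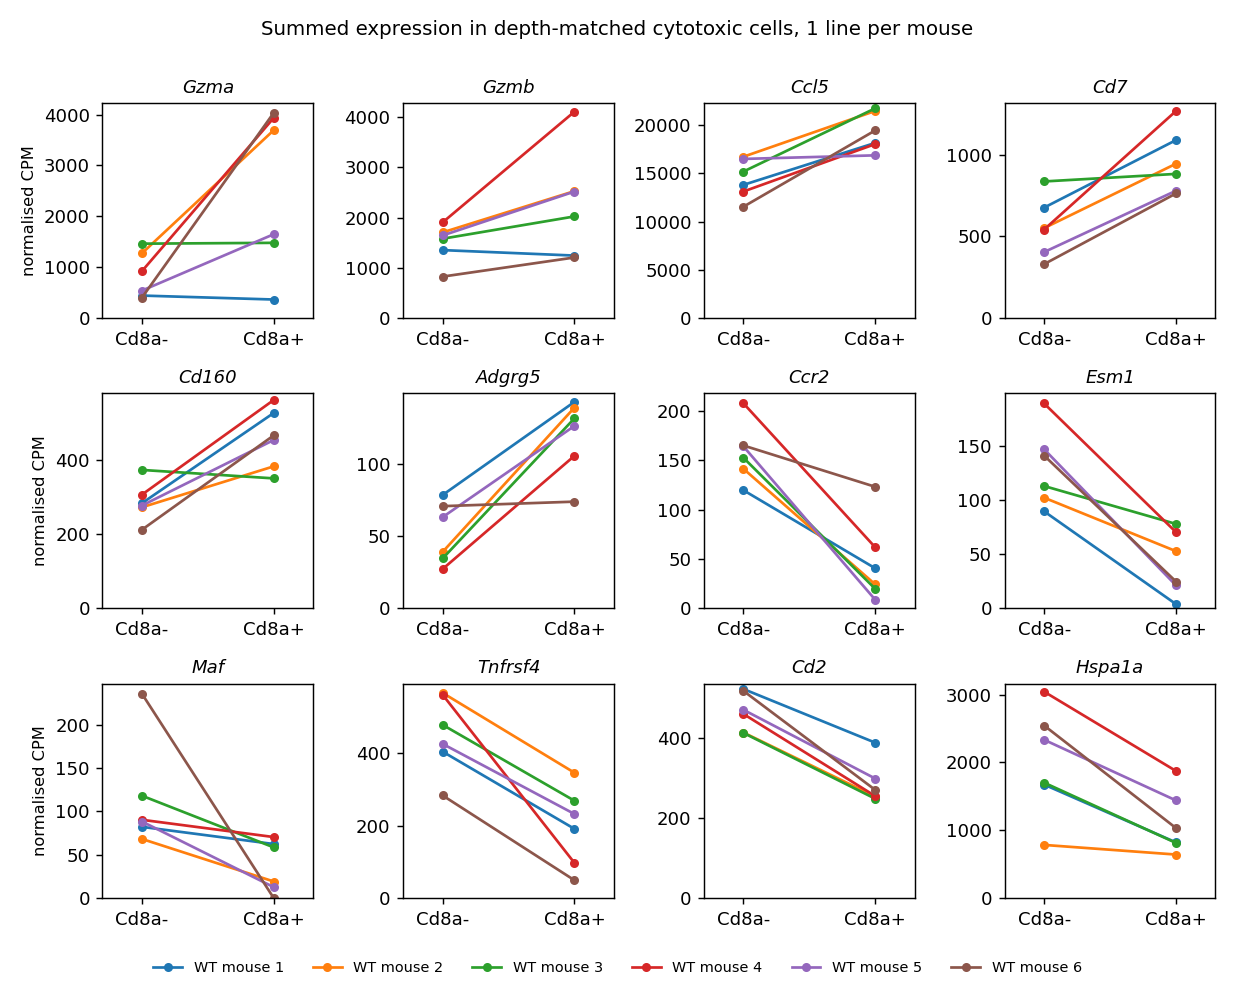
Normalised CPM (vertical axes, each starting at 0) of 12 genes in the summed Cd8a-negative and Cd8a-positive cells of 6 WT-labelled mice, with 1 line per mouse. Cd7, Ccl5 and Adgrg5 go up in all 6 mice, Ccr2, Esm1, Maf, Tnfrsf4, Cd2 and Hspa1a go down in all 6, and Gzma goes down in WT mouse 1 only.

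The largest of the 16 falls was in Ccr2, the receptor for CCL2 that marks recently recruited lymphocytes and monocytes. Positive cells of WT mice 1 to 6 had 40.4, 24.0, 19.5, 61.6, 8.43 and 123 CPM. Negative cells had 120, 141, 153, 208, 164 and 165 CPM. All 6 mice were lower on the positive side, and the WT mouse 6 value of 123 was the only positive one to reach the negative range. The change was -2.22 ± 0.28 (adjusted p = 1.0e-05). Ccr2 was tested under 18 of 20 alternatives and called in all 18, with changes of -2.44 to -1.91. It did not pass the filter on low counts in the pairs within clones, where no gene was called, or among cells with a Cd4 UMI.

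Maf and Ahr encode transcription factors of helper, regulatory and tissue T cells, and Ahr senses ligands from diet and microbes. Maf was at 62.4, 19.2, 58.5, 70.4, 12.6 and 0 CPM in positive cells and at 82.2, 68.2, 118, 90.3, 88.3 and 236 CPM in negative cells. It fell in every mouse by -1.22 ± 0.31 (adjusted p = 0.0465), and most in WT mouse 6, whose 17 positive cells had no Maf UMI. Without WT mouse 6 it was -1.07 (adjusted p = 0.0776), and it was also lost without WT mouse 2, 3 or 5 (adjusted p of 0.0603, 0.124 and 0.250). Ahr was at 25.8 ± 17.2 against 66.5 ± 11.2 CPM, with no overlap between the groups (-1.53 ± 0.36, adjusted p = 0.0263). The Ahr call was lost without WT mouse 1, 3, 4 or 5 (adjusted p of 0.0596 to 0.177).

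Lineage and effector transcription factors otherwise gave no call. Runx3 was at 160 ± 20.7 against 146 ± 27.3 CPM (0.22 ± 0.16, adjusted p = 0.827). Tbx21, which encodes T-bet, was at 178 ± 96.5 against 130 ± 38.9 CPM (0.31 ± 0.17, adjusted p = 0.705). Zbtb7b had 4 UMIs in positive and 8 in negative cells, too few to test. Eomes, the T-box factor of memory-like cytotoxic cells, was at 65.6 ± 75.6 against 154 ± 45.3 CPM, lower in 5 of 6 mice (-1.13 ± 0.31, adjusted p = 0.0658). Of 9 tested coreceptor and lineage genes and 12 tested effector factors, none passed, with median changes of -0.03 and 0.07.

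Tnfrsf4, which encodes the costimulatory receptor OX40, had 191, 345, 268, 96.8, 232 and 49.2 CPM in positive cells. Negative cells had 403, 565, 477, 560, 425 and 283 CPM. Each mouse fell, with a change of -1.06 ± 0.15 (adjusted p = 9.2e-05). Cd2, the adhesion receptor for CD48, was at 286 ± 53.5 against 467 ± 48.0 CPM with no overlap between the groups (-0.66 ± 0.12, adjusted p = 0.0016). It was the only call among 18 tested genes of T cell receptor signalling. Cd28, the main costimulatory receptor, was lower in 5 of 6 mice (-0.54 ± 0.14, adjusted p = 0.0514). Of 6 tested genes of a regulatory T cell list, Tnfrsf4 alone fell, and 5 lay below 0.

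Of 10 tested genes of an 11-gene list of heat shock and dissociation stress, 4 fell, against 16 of all 3118 genes. All 10 were below 0, with a median of -0.33, where 1557 of all genes were below 0. The inducible chaperone Hspa1a had 822, 643, 814, 1875, 1441 and 1034 CPM in positive cells and 1674, 785, 1702, 3044, 2335 and 2545 CPM in negative cells. Every mouse was lower (-0.82 ± 0.09, adjusted p = 1.8e-06). Hsp90aa1, Hsph1 and Hspa1b fell by 0.45, 0.66 and 0.40 on the log2 scale, each in 5 of 6 mice. All 3 calls were lost without WT mouse 1 or WT mouse 3 (adjusted p of 0.0524 to 0.215), and Hsph1 also without WT mouse 4 (0.0797). Hspa1a and Hspa1b are near-identical copies on chromosome 17, so reads can be split between them. These genes respond to tissue dissociation. The part of handling in the difference was not tested.

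Other falls were in genes induced by interferon and in Esm1. Ifitm3, an antiviral membrane protein, was at 31.3 ± 28.6 against 133 ± 70.2 CPM (-1.71 ± 0.31, adjusted p = 0.0016), and the related gene Ifitm2 fell by 0.71 (adjusted p = 0.0108). The Ifitm2 call was lost without WT mouse 4 or 5 (adjusted p of 0.0509 and 0.0885). Ifi27l2a was the only fall among 11 tested genes of the interferon list, whose median was -0.04, and it was lost without WT mouse 1, 3 or 5 (adjusted p of 0.0896 to 0.166). Esm1, a secreted proteoglycan gene, was at 41.8 ± 29.8 against 131 ± 36.5 CPM, lower in every mouse with no overlap (-1.64 ± 0.30, adjusted p = 0.0016). Esm1 (chr13:113209659-113218098, plus strand) lies wholly within the span of Gzmk on the other strand over 8440 bases. The labels do not say whether counting used strand, and no reads were examined. Whether reads of Gzmk entered the Esm1 count was not tested. The remaining falls were Cdipt (-0.91), H1f0 (-0.67) and Tmsb10 (-0.25). Cdipt was lost without WT mouse 3, 4, 5 or 6 (adjusted p of 0.0583 to 0.189), H1f0 without WT mouse 1, 3, 4 or 5 (0.0926 to 0.278), and Tmsb10 without any mouse but WT mouse 2 (0.0583 to 0.237).

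The remaining rises were Apaf1, the scaffold of the apoptosome, and Plac8, Litaf, Wnk1, Itm2b and Trgv2. Itm2b, a membrane protein gene, was at 2164 ± 110 against 1669 ± 180 CPM with no overlap between the groups (0.36 ± 0.07, adjusted p = 0.0051). Litaf, an endosomal membrane protein gene, rose in 6 of 6 mice (0.68 ± 0.13, adjusted p = 0.0032). Apaf1 rose in 6 of 6 mice (0.84 ± 0.21), but its adjusted p of 0.0490 went to 0.0607 to 0.218 without any one mouse. Plac8 rose by 0.69 ± 0.16 and was lost without WT mouse 1, 2 or 3 (adjusted p of 0.0601 to 0.215), and Wnk1 rose by 0.58 ± 0.13 and was lost without WT mouse 1, 3 or 5 (0.0609 to 0.151).

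Genes of residence, recirculation and inhibition showed few calls. Itgae, the integrin that binds epithelial cadherin, was at 280 ± 45.1 against 177 ± 57.3 CPM, higher in 5 of 6 mice without passing (0.52 ± 0.16, adjusted p = 0.141). Litaf and Ahr were the calls among 13 tested genes of the residence list. Klf2 and Lef1, factors of recirculating and naive cells, were at -0.56 ± 0.17 and -0.61 ± 0.21 (adjusted p of 0.118 and 0.215), and none of 7 tested genes of the stem-like and recirculation list passed. Tcf7 (-0.24), Il7r (0.04), Cxcr6 (-0.14), Prdm1 (0.08), Lag3 (0.27), Klrd1 (0.51), Xcl1 (-0.62) and Ifng (0.23) had adjusted p-values from 0.631 to 0.988. No gene passed among 3 tested Th17 genes, 4 cytokine genes and 6 cell cycle genes. Of the panel genes under the filter on low counts, Pdcd1 had 14 UMIs in positive and 44 in negative cells, Crtam 23 and 30, and Klrk1 28 and 37. In the fit without the filter Pdcd1, the inhibitory receptor PD-1, was at -1.58 ± 0.42 (adjusted p = 0.0327). The NK-type receptor gene Cd244 had 34 and 9 UMIs and was at 1.83 ± 0.51 there (adjusted p = 0.0488).

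Markers of other cell types were counted in the matched cells. Trdc, the constant region of the delta chain, had 0 UMIs on both sides, as did Epcam, Csf1r and C1qa. The NK marker Klrb1c had 0 UMIs in positive and 2 in negative cells. Of the 11 dendritic cell and macrophage markers in the table, Cst3 had 196 and 166 UMIs and Cd74 had 103 and 113 in positive and negative cells, and the list summed to 129 to 361 and 237 to 375 CPM of all UMIs. Of the NK list, Prf1 had 55 and 42 UMIs and Txk 54 and 67, and T cells also express both. Pecam1, of the stroma list, had 24 and 27. The 5 listed gamma-delta genes in the table summed to 131 to 195 CPM of all UMIs in positive and 65.7 to 129 CPM in negative cells. That sum came from gamma-chain constant genes, and the gamma variable segment Trgv2 rose by 0.62 ± 0.13 (adjusted p = 0.0108), in 6 of 6 mice. The Trgv2 call was lost without WT mouse 4 or 5 (adjusted p of 0.0590 and 0.0891).

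The list of B cell markers differed through immunoglobulin transcript. Igkc, the constant region of the kappa light chain, was found in 1 of 402 positive cells (0.249%, exact 95% interval 0.00630 to 1.38%) and in 31 of 402 matched negative cells (7.71%, 5.30 to 10.8%). The UMIs were 0, 0, 0, 1, 0 and 0 in positive cells of WT mice 1 to 6, and 9, 30, 6, 12, 10 and 2 in the matched negative cells. Each mouse was lower on the positive side. Igkc did not pass the filter on low counts. In the fit without that filter its change was -5.30 ± 0.61 (adjusted p = 1.0e-14). Among all negative cells 212 of 2635 had an Igkc UMI (8.05%), against 0.181% of Th17, 1.23% of cycling and 11.9% of regulatory cells (15 of 126) of the same mice. In KO mice Igkc was found in 3 of 818 cytotoxic cells (0.367%), only 35 of which were Cd8a-positive. It was found in 7 of 254 regulatory cells of KO mice (2.76%). The high share in Cd8a-negative cytotoxic cells was thus seen in WT mice only. The source of the transcript was not tested. The other B cell markers in the table, Ighm and Cd79b, had 1 and 0 UMIs in positive and 8 and 4 in negative cells. Igkc (chr6:70726435-70726966, plus strand) lies 646 kb upstream of Cd8a on the same chromosome and strand.

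Cells with Igkc and cells with Cd8a were counted by clone. Of 352 clones of 2 or more cytotoxic cells, 108 held a Cd8a-positive cell, 52 held a cell with Igkc, and 4 held both. The clones with Igkc were smaller, with a median of 3.5 against 6 cytotoxic cells in those with Cd8a. In the clone of WT mouse 4 with 0 of 21 Cd8a-positive cells, 11 cells had Igkc, 11 had Eomes and 17 had Gzmk. In a clone of WT mouse 5 with 0 of 25, 8 cells had Igkc, 20 had Eomes and 23 had Gzmk. The other clone of that mouse with 0 of 25 differed, with 1, 16 and 6 such cells. In the 84-cell clone of WT mouse 5 with 37 positive cells, 2 had Igkc, 12 had Eomes and 22 had Gzmk. Cells with Eomes ran from 0 to 50 in the large clones that held Cd8a-positive cells. The pair of clones of WT mouse 1 with the same beta junction was rich in Eomes and Gzmk. In WT mouse 1, the clone with 14 of 86 positive cells had 0 cells with Igkc, 50 with Eomes and 50 with Gzmk. The clone with 8 of 65 had 0, 31 and 37. With cells holding Igkc left out before matching, 21 genes passed and 18 of the 28 calls were kept. Esm1 and Maf were among those lost, at -1.24 (adjusted p = 0.0648) and -1.07 (0.137), while Ccr2 (-2.03), Gzma (1.08) and Ccl5 (0.41) were kept.

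To hold the clone fixed, 296 pairs of a positive and a negative cell of the same clone and mouse were compared over 5 mice, WT mouse 6 having too few. Of 2712 genes tested, none passed (0%), 136 had an unadjusted p under 0.05 in the same edgeR fit, and no second tool was run on these pairs. Gzma changed by 0.02 ± 0.23, Gzmb by -0.0058 ± 0.087 and Ccl5 by 0.02 ± 0.07. Cd7 changed by 0.38 ± 0.14 and Adgrg5 by 0.57 ± 0.26, and Tnfrsf4 by -0.53 ± 0.20. Hspa1a changed by -0.20 ± 0.16. Of the 28 called genes 24 were tested within clones, and 22 of them kept their direction. Their median change in that direction was 0.24, against 0.67 in all matched cells. The positive cells here are among those that gave the 28 calls, so a shared direction was likely in advance. Ccr2, Ahr, Esm1 and Ifitm3 did not pass the filter on low counts there. Depth was less well matched within clones, with medians of 3151 against 2825 UMIs in WT mouse 3. Whether these changes differ from those in all matched cells was not tested.

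The Cd8a-negative partners from those clones were then compared with depth-matched Cd8a-negative cells of clones that held no positive cell, so that no cell on either side had a Cd8a UMI. This comparison was added after the data were seen, and it shares cells with the others. Of 2618 genes tested over 5 mice, 45 passed (1.72%), 25 higher and 20 lower in the clone-mates. The clone-mates came from larger clones, with a median size of 17 against 2 cytotoxic cells. In WT mouse 5, the clone of 84 cells with 37 positive cells gave 37 of the 71 clone-mates. It also gave 37 of the 71 pairs of that mouse within clones. Neither comparison was repeated without the large clones, so the part of that clone in them was not tested.

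Of 13 tested granule genes 4 rose and 1 fell, and of 12 tested effector transcription factors 1 rose and 1 fell. Ccl4 was at 1743, 1170, 775, 1284 and 1092 CPM in clone-mates of WT mice 1 to 5 and at 588, 347, 491, 275 and 689 CPM in the other cells. The groups did not overlap, and the change was 1.26 ± 0.16 (adjusted p = 1.0e-04). Cd160 rose by 0.97 ± 0.16, Gzmb by 0.67 ± 0.11 and Cd7 by 0.72 ± 0.14 (adjusted p of 0.0013, 0.0013 and 0.0041). Ifng, the type 1 effector cytokine gene, rose by 0.61 ± 0.12 (adjusted p = 0.0064). Gzma rose by 1.21 ± 0.30 (adjusted p = 0.0343) in 4 of 5 mice, with a spread of 159 to 6527 CPM among the clone-mates. Of 15 tested early genes of receptor signalling, 4 rose and none fell, among them Fos (0.81 ± 0.16) and Cd69 (0.51 ± 0.11).

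Among the 20 falls were Eomes, Gzmk, Esm1, Ly6c2 and Ccr2. Eomes was at 178, 19.3, 39.1, 89.2 and 56.9 CPM in clone-mates and at 311, 229, 161, 348 and 269 CPM in the other cells. It fell in 5 of 5 mice (-1.78 ± 0.27, adjusted p = 5.1e-04). Gzmk fell by 1.20 on the log2 scale (adjusted p = 0.0013) in 4 of 5 mice. Esm1, which lies within the span of Gzmk, fell by 2.33 (adjusted p = 3.5e-04). Ly6c2, a surface protein of circulating effector and memory cells, fell from 165 ± 32.4 to 31.6 ± 24.9 CPM (-2.11 ± 0.32, adjusted p = 5.1e-04), and Ccr2 fell by 1.47 (adjusted p = 0.0031). Hspa1a fell by 0.71 (adjusted p = 0.0031), 1 of 4 falls among 10 tested heat shock genes. Ly6c2 was named after its value was seen. Without WT mouse 5 only 7 genes passed in this comparison, and 26 without WT mouse 2. With clones of 5 or more cells on both sides, at median sizes of 17 and 7, 15 passed.

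**Figure D5:**
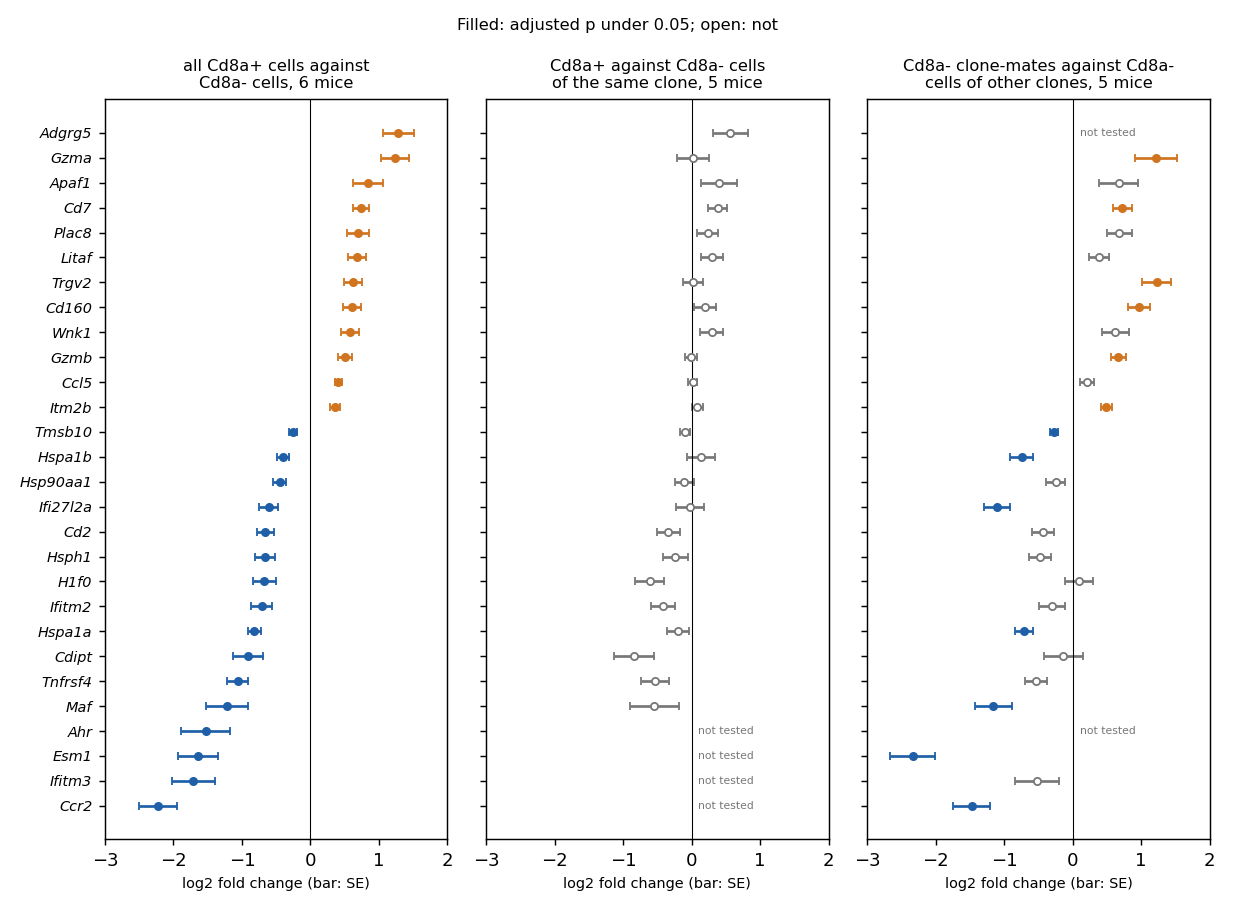
Log2 fold changes (horizontal axes, bars are SE) of the 28 called genes in 3 comparisons that share cells: all matched cells, pairs within a clone, and Cd8a-negative clone-mates against Cd8a-negative cells of other clones. Filled points passed an adjusted p of 0.05. In the middle panel no point is filled, and Gzma, Gzmb and Ccl5 lie at 0.02, -0.0058 and 0.02. Of the 24 genes tested there, 22 keep the direction of the left panel.

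Cells that sit close to the threshold of the choice behaved as follows, given as a description with no test. Against their own depth-matched cells with 0 UMIs, cells with exactly 1 Cd8a UMI differed by 0.65 in Cd7, 0.32 in Ccl5, 0.65 in Gzma and 0.07 in Gzmb on the log2 scale. Cells with 2 or more differed by 0.84, 0.37, 1.38 and 0.72. The sets of mice were unlike, since cells with 1 UMI came from WT mice 1 to 5 and those with 2 or more also from WT mouse 6. In all matched cells, the log2 ratio of Gzma in WT mouse 6 was 3.33, the highest of the 6 mice. For Gzmb the ratio in WT mouse 6 was 0.55, inside the range of -0.12 to 1.11 over the 6 mice. WT mouse 6 gave 10 of the cells with 2 or more UMIs. The 2 sets were not compared over the same mice, so whether the values rise with the Cd8a count was not tested. Tnfrsf4 was at -0.85 and -1.13, Hspa1a at -0.74 and -1.06, and Cd2 at -0.87 and -0.50.

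Outside the cytotoxic subset, 4 WT mice had 10 or more positive cells, and these were paired with negative cells of the same subset and depth. Of the 82 positive cells outside that subset in all WT mice, 46 were in the cycling subset. The cycling label does not say whether a cell is cytotoxic, so positive cells and their partners there may differ in that respect. This was not tested. Of 1495 genes tested, 18 passed (1.2%), 11 higher and 7 lower. Ccl5 had 4406, 9775, 6935 and 6856 CPM in positive cells of WT mice 1, 2, 3 and 5 and 621, 1512, 1144 and 1332 CPM in negative cells, a full separation (2.58 ± 0.12, adjusted p = 2.3e-10). Gzma had 1620, 7317, 6355 and 133 CPM against 0, 352, 176 and 11.7 CPM (4.83 ± 0.24, adjusted p = 5.4e-10). Nkg7, Cd7 and Gzmb rose by 1.20, 1.25 and 1.22, and Tnfrsf4 and Ifitm2 fell by 1.31 and 1.55. Hspa1a rose there, by 1.48 ± 0.25 (adjusted p = 0.0043), in the 4 mice, and Hsp90aa1 rose by 0.91 ± 0.18 (adjusted p = 0.0175), while both fell in cytotoxic cells. Leaving out WT mouse 1 left 8 calls. The difference between the cytotoxic and the other cells was tested in limma over the 4 mice, and 1 of 1444 genes passed (0.0693%). That gene was Ccl5, whose change was lower in cytotoxic cells, the difference being -2.26 ± 0.20 (adjusted p = 0.0086). For Hspa1a the difference was -2.19 ± 0.36 (adjusted p = 0.128), and for Hsp90aa1 -1.47 ± 0.29 (0.266). For Gzma, whose levels varied widely between mice, the difference was -3.52 ± 0.82 (0.361).

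In KO mice the positive cytotoxic cells numbered 3, 2, 4, 13, 7 and 6 in KO mice 1 to 6. Only KO mouse 4 reached 10, so the paired test over at least 3 such mice was not run. With all 35 cells, 3 matched negative cells each and 251 genes tested, Tmsb10 alone passed (-0.53 ± 0.11, adjusted p = 0.0450). Ccl5 and Gzmb changed by 0.24 ± 0.24 and 0.57 ± 0.38 (adjusted p of 0.848 and 0.833), and Cd7 and Gzma were not tested there.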

How the data were processed

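The authors deposited raw UMI counts per gene and cell, and the deposited annotation gives each cell's mouse, subset, clonotype, percent of mitochondrial UMIs and doublet score, whose tool the labels do not state. The submitters' processing notes list the tools Cell Ranger 3.1.0 and Seurat 3.1.5, beside GRCm38 and mm10 as builds, with no role for any. Coordinates are from GENCODE on GRCm38. All 18860 cells had a genotype that matched the hashtag table. The 11971 genes in the table are those deposited.

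Positive and negative cells were matched 1 to 1 within each mouse on UMIs outside Cd8a, summed, filtered with filterByExpr and tested with edgeR 4.0.16 (TMM, quasi-likelihood test, mouse as a block because both sides come from the same animal, Benjamini-Hochberg adjustment over all genes). CPM are TMM-normalised over the genes tested. The SE is the log2 fold change divided by the square root of F. It is an SE of the fit and can be smaller than the spread between mice. Cell measures were tested by exact sign-flip over 64 assignments and differences between subsets with limma 3.58.1 (prior count 2). DESeq2 1.42.0 was an alternative. Doublets were not removed. Counts were simulated for the 3118 genes of the main comparison, with 50 genes changed 1.49-fold, 100 changed 2-fold and 50 changed 4-fold. In that simulation 58% of 1.49-fold, 87% of 2-fold and 100% of 4-fold changes were recovered, with 6 false calls among 172. More genes were changed there than the main comparison called, which makes the adjustment less strict. Recovery with fewer changed genes can be lower and was not tested.

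The cells and gene lists were chosen with earlier results of these data known. Named genes are a panel of lineage and effector genes, up to 10 rises and 10 falls with the same direction in every mouse and a mean log2 CPM of at least 5 (leaving out receptor segments and gene models), and the 4 members of each list with the smallest p. The other called genes were named after their values were seen. Added after seeing the data were the clone-mate comparison, the use of all positive KO cells, 3 negative cells per positive cell, and leaving out large clones or cells with Igkc. The smallest p of 6 pairs is 0.03125. The labels do not say whether the mice came from separate experiments.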

Additional observations from a re-analysis of the deposited data

Results flagged for a closer look

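Of 55 sets of 6 mice looked at, 4 held a mouse far from the others, where about 1 in 20 would by chance. WT mouse 6 stood apart in the log2 ratio of positive to negative cells for 3 genes: Maf at -7.89, Lag3 at 6.95 and Il7r at 0.98, the ratios being taken after adding 1 CPM. That mouse has 17 positive cells, with 0 CPM of Maf on the positive side and 0 CPM of Lag3 on the negative side. WT mouse 5 stood apart in the mitochondrial percentage, which was 0.165 points lower in its positive cells (a difference of -0.165), against differences of -0.01 to 0.04 in the other mice.

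Ccl5 differed more by Cd8a status in other cells than in cytotoxic cells, by -2.26 on the log2 scale in the limma test of the difference. The baseline level differed too, since negative cytotoxic cells had 14486 ± 2029 CPM (SD, n = 6) and the negative cells matched to positive cells of the other subsets 1152 ± 385 CPM (SD, n = 4), each from its own normalisation. Without WT mouse 1, 2 or 3 no gene passed that test. Whether the partners of the cycling cells were as cytotoxic as the positive cells was not tested.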

How the results depend on the processing

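The main count of 28 genes became 91 with all negative cells unmatched, 46 after thinning to 1500 UMIs, 72 without the filter on low counts, 55 with 3 negative cells per positive cell, 12 by DESeq2's test, 13 with no replicate block, 4 among cells with a Cd4 UMI and 0 within clones, where fewer cells and 5 mice entered. Leaving out 1 mouse gave 21 to 41. Gzmb (-0.0058) and Hspa1b (0.13) had the opposite sign within clones, and the cause was not tested. DESeq2 size factors, or leaving out cells with Cd8b1, kept all 28 calls, and leaving out the tenth with the highest doublet scores kept 18. Leaving out clones of 20 or more cytotoxic cells gave 41 calls and kept 20 of the 25 main calls tested there. In other cells 18 calls became 619 with all negative cells, where subsets were not balanced, 10 with no replicate block, 48 without the filter, and 8 to 18 without 1 mouse. The test of the difference gave 0 to 2 without 1 mouse. The clone-mate count of 45 became 27 with no replicate block, 15 with clones of 5 or more, and 7 to 55 without 1 mouse. Without matching, the median depth differed by 420 UMIs, genes per cell by 129 and the doublet score by -0.0028. The Cd8a share stayed lower in KO than in WT mice in each of 14 alternatives. The KO comparison with all negative cells was not run, since 1 mouse had 10 positive cells. Precision is limited by the 17 positive cells of WT mouse 6 and by genes with few UMIs in 402 cells.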
